A study of Mus musculus with 2 samples.

Results

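Monocyte to macrophage intermediates were barcodes of CD45+ tumor leukocytes with RNA of genes typical of blood monocytes and of genes typical of tissue macrophages. They were chosen by unique molecular identifiers (UMIs, the count of single RNA molecules) among barcodes with at least 200 genes and at most 10% mitochondrial UMIs. An intermediate had at least 10 UMIs of C1qa, C1qb and C1qc together and at least 5 UMIs of Ly6c2, Plac8 and Chil3 together. It also had at most 2 UMIs of the cycling genes Mki67 and Top2a, at most 9 of the interferon-induced genes Rsad2, Ifit1, Ifit2 and Ifit3, and none of Cd3d, Cd3e or Cd3g. The rule found 347 intermediates among 19950 kept barcodes, 120 of 10037 in the MWA library and 227 of 9913 in the MWA plus TIGIT library.

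The cells came from MC38 tumors, a mouse colon cancer line grown under the skin of both flanks of male C57BL/6 mice that were 6 to 8 weeks old. In both groups the right tumor was treated by microwave ablation (MWA), a local heat treatment, at about 300 mm3, and the left tumor, which was not ablated, was collected 8 days later. The MWA plus TIGIT group also received an antibody against the inhibitory receptor TIGIT into the peritoneum, 3 times at intervals of 3 days from day 1 after ablation according to the sample labels, and the MWA group an isotype control antibody. Each group was 1 droplet library, read at the 3′ end of transcripts, and the number of mice behind each was not stated, so no test between the groups was possible. Every difference between the groups is one between 2 libraries, and the intervals below cover counting error only.

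In tumors, monocytes that carry Ly6C enter from blood by the chemokine receptor CCR2 and lose monocyte genes such as Ly6c2, Plac8 and Chil3 while they gain macrophage genes. C1qa, C1qb and C1qc encode the chains of complement C1q, which tissue macrophages make in large amounts. Cells on this path can show antigens on MHC class II and draw T cells with chemokines, and both programs are induced by interferon-gamma.

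The gate genes themselves were a description, since the rule chose on them. The C1q sum of an intermediate had a median of 59 UMIs in MWA (range 10 to 350) and of 78 in MWA plus TIGIT (10 to 515). The monocyte sum had medians of 10.5 (5 to 92) and 13 (5 to 159). All 3 monocyte genes were found together in 25 of 120 and 78 of 227 intermediates, while 42 and 68 had only 1 of them, mostly Chil3, which encodes a secreted chitinase-like protein and stood alone in 23 and 49. The scatter was continuous in both directions, with no gap at either limit. Just inside the monocyte limit, at 5 or 6 UMIs, lay 22 and 42 barcodes, and just outside it, at 3 or 4 UMIs with the C1q sum still at 10 or more, lay 46 and 83. Ccr2 was at 605 and 676 CPM (UMIs of a gene per 1e+06 UMIs of the barcodes summed) just inside and at 640 and 632 CPM just outside, so the limit did not separate 2 levels of this monocyte gene. Just inside the C1q limit, at 10 to 12 UMIs, lay 5 and 11 barcodes, and just outside it, at 7 to 9, lay 7 and 13.

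**Figure D1:**
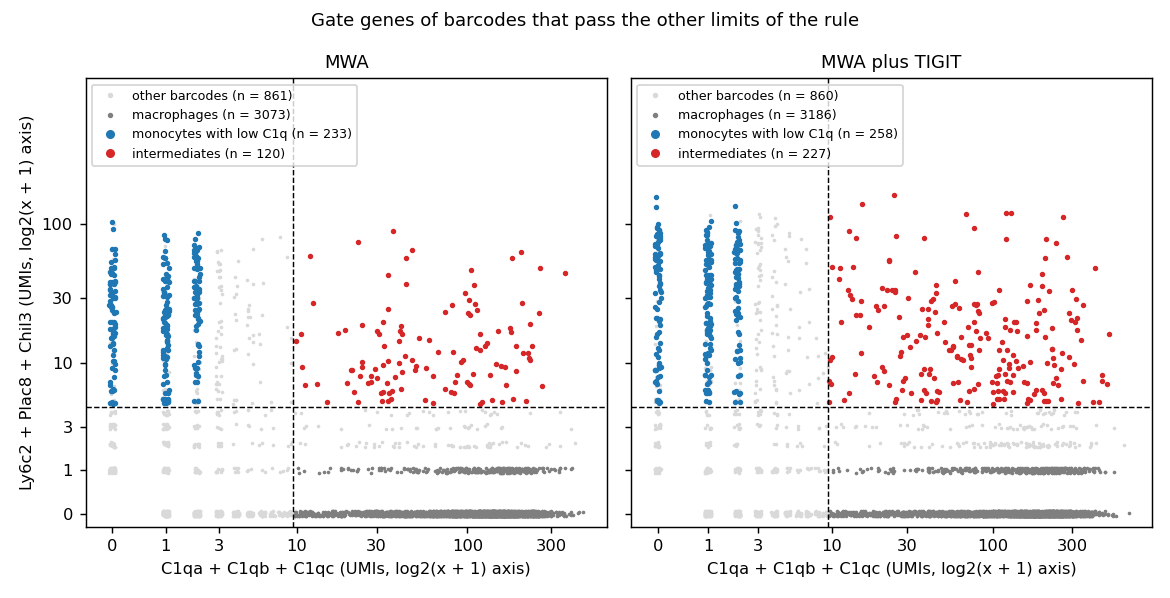
UMIs of C1qa, C1qb and C1qc summed (x axis) against UMIs of Ly6c2, Plac8 and Chil3 summed (y axis), both on a log2(x + 1) axis with tick labels in UMIs, for barcodes that passed the other limits and had a UMI of a gate gene. Each point is a barcode, shifted slightly at random so that points do not cover each other, and dashed lines mark the limits of 10 and 5 UMIs; the 120 and 227 intermediates (red) lie upper right, with no gap to their neighbors.

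C1q RNA was also found outside macrophages. Among 4254 and 3995 kept barcodes with at least 3 UMIs of the T cell genes Cd3d, Cd3e and Cd3g, which should make no C1q, 71.3% (exact binomial 95% interval 69.9 to 72.7) and 72.1% (70.7 to 73.5) had a C1q UMI. At least 10 C1q UMIs were found in 8.35% (7.53 to 9.22) and 6.81% (6.05 to 7.63) of them. Chil3 was rarer there, with a UMI in 1.79% and 2.48% of these barcodes and 5 or more in 0.353% and 0.551%. The T cell barcodes were shallower, with medians of 3864 and 3932 UMIs, than the intermediates, with medians of 8459.5 and 10210. The share of free RNA in single intermediates was not tested.

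A droplet with a monocyte and a macrophage would pass the same rule. A caller based on simulated sums of 2 barcodes marked 20 of 120 intermediates in MWA (16.7%, exact binomial 95% interval 10.5 to 24.6) and 31 of 227 in MWA plus TIGIT (13.7%, 9.47 to 18.8). It marked 8.03% and 7.93% of all kept barcodes, a share that its rate set in advance. Of the macrophages defined below it marked 6.15% and 5.43%. Of the monocytes with low C1q defined below it marked 1 of 233 and 0 of 258. Marked intermediates were deep: their medians were 11399.5 and 17397 UMIs, while unmarked ones had 8037 and 9651. The rule kept them, and the main values are given below without them as well. The libraries shared 34 kept barcode sequences, none of them in an intermediate.

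Intermediates were a larger share of the MWA plus TIGIT library. They made up 1.20% of kept barcodes in MWA (exact binomial 95% interval 0.992 to 1.43) and 2.29% in MWA plus TIGIT (2.0 to 2.60), a difference of 1.09 percentage points (0.726 to 1.47) and a ratio of 1.92. Of the barcodes with at least 10 C1q UMIs that passed the other limits, 3.64% and 6.32% were intermediates. A rule in UMIs favors the deeper library, and MWA plus TIGIT was deeper, with a median of 6838 UMIs per kept barcode against 5747. With every barcode thinned to 5000 UMIs and shallower ones left out, 4396 in MWA and 3770 in MWA plus TIGIT, the shares were 1.47% (83 of 5641) and 1.97% (121 of 6143). That difference was 0.498 points (0.0159 to 0.981), and as a share of C1q-high barcodes it was 0.744 points with an interval that held 0 (-0.101 to 1.58). Without marked doublets the shares were 1.08% and 2.15%.

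To place the intermediates, they were set against both ends of the gate within each library. Monocytes with low C1q, 233 and 258 barcodes, had at least 5 UMIs of the same monocyte genes, at most 2 of C1q and at least 5 of the myeloid gene Lyz2. Macrophages, 3073 and 3186 barcodes, had at least 10 UMIs of C1q and at most 1 of the monocyte genes. As shares of kept barcodes the monocytes were 2.32% and 2.60% and the macrophages 30.6% and 32.1%. Median UMIs were 4787 and 6183.5 in monocytes and 8203 and 10062.5 in macrophages, so intermediates had about the depth of macrophages. The libraries stand here as repeats of the same contrast, and the levels are sums of UMIs over the barcodes of a class.

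Counts over all genes, here and below, left out the 15 genes of the rule and mitochondrial, ribosomal, hemoglobin, immunoglobulin and T cell receptor genes. They also left out gene models without a name and repeated symbols. Of 2139 genes with at least 50 CPM in intermediates of both libraries, 39.6% lay between monocytes and macrophages in both libraries, 11.3% above both and 6.03% below both. At least 1.5-fold above monocytes were 6.17% and at least 1.5-fold below them 3.83%. Against macrophages these shares were 2.38% and 1.03%. Gene lists outside the rule were read against these shares, by counts and medians and without a test.

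Macrophage genes lay between the classes almost throughout. Of 22 macrophage genes with enough UMIs, 20 lay between in both libraries and 17 were at least 1.5-fold above monocytes, while 5 were at least 1.5-fold below macrophages. The list's median log2 ratio was 1.30 and 0.97 over monocytes and -0.45 and -0.55 over macrophages, where the median of all genes was 0.01 and -0.01 over monocytes and 0.03 and 0.04 over macrophages. Apoe, which carries lipids and is made in quantity by macrophages, was at 10333 CPM in MWA and 12501 in MWA plus TIGIT, against 3677 and 4202 in monocytes and 14660 and 18716 in macrophages. Its range over single intermediates was wide, with quartiles of 4911 and 14445 CPM in MWA.

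Other macrophage genes stood in the same order. Ms4a7, a membrane protein that marks mature macrophages, was at 683 and 645 CPM, against 178 and 236 in monocytes and 1003 and 1045 in macrophages. Trem2, a lipid receptor of tumor macrophages, was at 688 and 738 CPM, against 270 and 380 and against 956 and 994. Mrc1, the mannose receptor, was at 187 and 136 CPM, against 34.6 and 30.7 in monocytes and 242 and 272 in macrophages. Cd63, a protein of late endosomes, was among the furthest below macrophages, at 270 and 216 CPM against 543 and 575. Spp1, osteopontin, ran the other way, with 948 and 867 CPM in intermediates, 1123 and 908 in monocytes and 547 and 669 in macrophages. Axl, a receptor for dying cells, was above both classes in both libraries at 177 and 172 CPM.

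Classical monocyte genes outside the gate were mostly lower than in monocytes. Of 11 with enough UMIs, 8 lay between the classes in both libraries, the same number was at least 1.5-fold below monocytes, and 4 were at least 1.5-fold above macrophages. The median log2 ratio was -0.92 and -0.93 over monocytes and 0.75 and 0.47 over macrophages. Ccr2, the receptor for monocyte entry, was at 609 and 667 CPM, against 802 and 876 in monocytes and 291 and 258 in macrophages. A Ccr2 UMI was found in 108 of 120 and 206 of 227 intermediates. Ms4a4c, a membrane protein of Ly6C+ monocytes, was at 252 and 247 CPM, against 381 and 456 in monocytes and 73.2 and 67.7 in macrophages. S100a4 and Ifitm3 were lower still relative to monocytes: S100a4 was at 1789 and 1637 CPM against 3377 and 3119, and Ifitm3 at 1993 and 1751 CPM against 4197 and 4059. Fn1, fibronectin, which is on the monocyte list, was above both classes at 2062 and 2260 CPM, against 1433 and 1325 in monocytes and 1856 and 2102 in macrophages.

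Inflammatory cytokine genes, interferon genes and regulators gave a mixed order. Il1b, which encodes interleukin-1 beta, was at 945 and 799 CPM, against 1387 and 1473 in monocytes and 268 and 217 in macrophages, and was the only one of 4 measured genes of its list between the classes in both libraries. Of 4 type I interferon genes outside the rule, 3 lay between, and 3 were at least 1.5-fold above macrophages. Slfn5, an interferon-induced gene, was at 115 and 114 CPM, against 184 and 199 in monocytes and 57.0 and 62.5 in macrophages. The rule caps genes of this program, so its level is partly set by the choice. Cebpb, a transcription factor of monocytes, was at 846 and 801 CPM, against 1690 and 1659 in monocytes and 503 and 532 in macrophages. Of 13 transcription factors 6 lay between, and Irf8, a regulator of monocytes and dendritic cells, was above both at 220 and 269 CPM, by a small margin over macrophages (218 and 221). Nr4a1, the 1 nonclassical monocyte gene with enough UMIs, was at 148 and 162 CPM, against 304 and 297 in monocytes and 144 and 100.3 in macrophages. Pcna, the 1 cell cycle gene with enough UMIs outside the rule, was at 99.7 and 72.2 CPM in intermediates and at 85.5 and 80.5 in macrophages. Lipid and lysosome genes lay between for 6 of 10, with Ctsb, a lysosomal protease, at 1416 and 1458 CPM, against 814 and 893 in monocytes and 2128 and 2422 in macrophages.

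**Figure D2:**
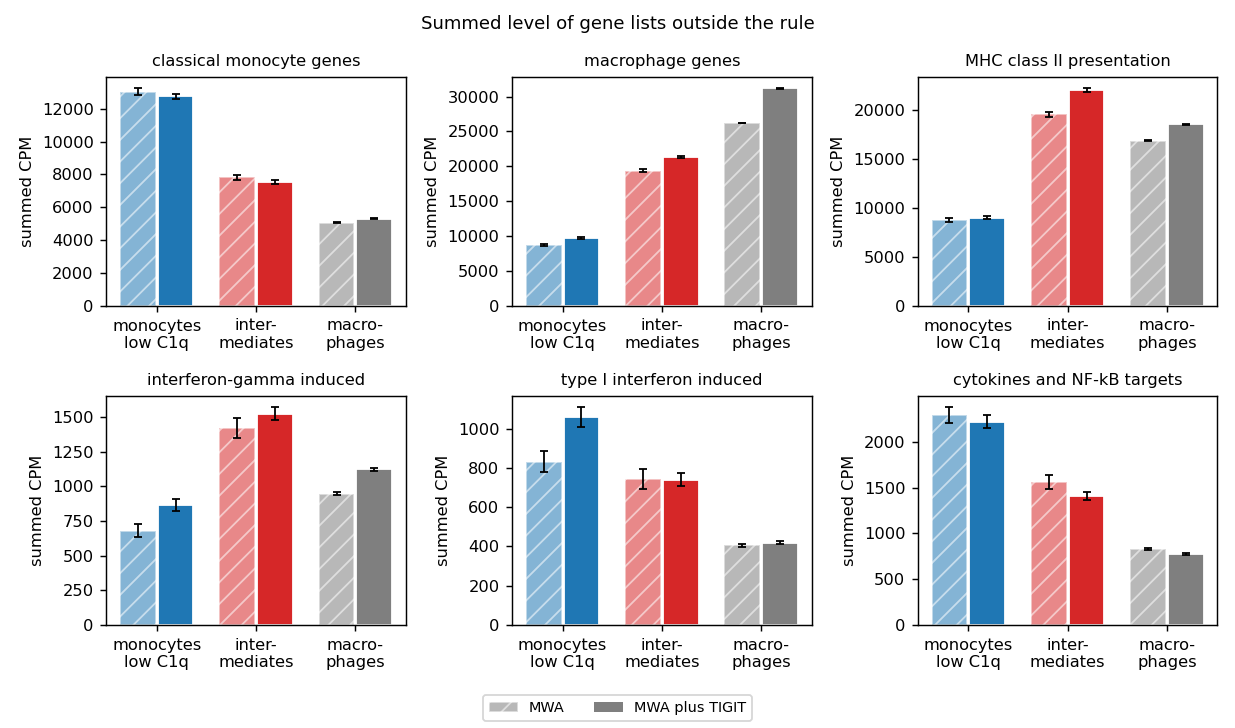
Summed CPM (y axes, from 0) of 6 gene lists outside the rule in monocytes with low C1q, intermediates and macrophages, with MWA hatched and MWA plus TIGIT solid. Bars are sums over all listed genes and error bars exact Poisson 95% intervals for counting error; the monocyte and macrophage lists put intermediates in the middle, while MHC class II (19537 and 22024 CPM in intermediates) and interferon-gamma genes (1421 and 1524 CPM) are highest there.

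Summed over all intermediates, MHC class II genes did not lie between. Of 9 with enough UMIs, 7 were above both monocytes and macrophages in both libraries and none below both, where 11.3% of all genes were above. Over monocytes the median log2 ratio was 0.81 and 1.08, and over macrophages 0.31 and 0.33. H2-Aa, the alpha chain of I-A, was at 3142 and 3312 CPM, against 1182 and 1002 in monocytes and 2508 and 2641 in macrophages. Its partner H2-Ab1 was at 2782 and 3061 CPM, against 1097 and 1024 and against 2110 and 2306. H2-Eb1, the I-E beta chain, was at 2787 and 2934 CPM, against 894 and 715 in monocytes and 2428 and 2473 in macrophages. Cd74, the invariant chain that escorts class II molecules, was at 7243 and 8442 CPM, against 2911 and 3132 and against 6379 and 7116. All 4 genes thus kept the order of intermediates, macrophages and monocytes in both libraries, with the step to macrophages much smaller than the step to monocytes. Barcodes just outside the monocyte limit, at 3 or 4 UMIs, had 2819 and 3515 CPM of H2-Ab1. They too were above macrophages, so this level was not particular to intermediates.

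The genes for peptide loading and control of class II were also above both classes, at lower levels. H2-DMb1 and H2-DMa, which encode chains of the peptide exchange factor, were at 453 and 450.4 CPM and at 521 and 569 CPM. Macrophages had 312 and 324 CPM of H2-DMb1 and 421 and 438 of H2-DMa, and monocytes 258 and 239 and 369 and 381. Ciita, the class II transactivator, was sparse and had monocytes above macrophages in MWA, at 63.1 and 66.0 CPM against 49.6 and 31.3 in monocytes and 32.9 and 35.4 in macrophages. The other measured genes of the list were Ctss, the protease that trims the invariant chain, and Cd86, a costimulator. Ctss was close to macrophages, at 2423 and 3072 CPM against 2535 and 3084, and Cd86 lay between in both libraries.

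The H2 genes lie together on chromosome 17 of GRCm38: H2-DMb1 at 34153072 to 34160230, H2-Ab1 at 34257689 to 34269419, H2-Aa at 34282744 to 34287823 and H2-Eb1 at 34305867 to 34316674. Class II promoters are known for a shared Y box, an inverted CCAAT element just before the start. Promoter windows from RefSeq (GRCm38.p6) were at hand for 6 of the 11 listed class II genes, and 3 of these held the Y box core GATTGG, on either strand, in the 100 bases before the transcription start. Of all 32851 promoters in the table, 8.62% held it in the same window. These 3 windows are shown because they held the core, and windows of listed genes without it are not shown. The 3 genes all stood above both classes. They are read 5′ to 3′ on the strand of the gene, with the motif, or its reverse complement CCAATC, in capitals, and they span chr17:34287824-34287923 (minus strand), chr17:34305767-34305866 (plus) and chr17:34153091-34153190 (plus).
H2-Aa: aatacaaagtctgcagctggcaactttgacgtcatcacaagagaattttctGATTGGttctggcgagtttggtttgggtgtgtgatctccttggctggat
H2-Eb1: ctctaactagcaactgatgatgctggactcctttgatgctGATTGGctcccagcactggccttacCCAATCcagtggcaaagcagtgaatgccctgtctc
H2-DMb1: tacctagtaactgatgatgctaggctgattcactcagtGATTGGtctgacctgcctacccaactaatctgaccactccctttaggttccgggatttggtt
The forward match began 49, 60 and 62 bases before the start of H2-Aa, H2-Eb1 and H2-DMb1. H2-Eb1 held a second match on the other strand, 35 bases before the start. The start is that of the RefSeq transcript, which for H2-DMb1 lies inside the gene interval given above, since that interval begins further upstream. A match of letters is a description and says nothing of binding in these cells.

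Single intermediates differed widely in class II. The summed level of H2-Aa, H2-Ab1 and H2-Eb1 had a median of 5466 CPM over MWA intermediates, with quartiles of 561 and 14313, and of 6439 CPM over MWA plus TIGIT intermediates, with quartiles of 992 and 16692. Macrophages had medians of 2968 and 3641 CPM, and monocytes of 273 and 210 CPM. Medians over barcodes thus had the same order as the sums, while the quartile ranges of intermediates and macrophages overlapped over most of their length. Without marked doublets H2-Aa was at 3422 and 3489 CPM in intermediates and at 2497 and 2627 CPM in macrophages, and the 7 class II genes above both classes stayed 7.

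Ly6a stood furthest above both classes. Ly6a encodes Sca-1, a surface protein that interferons induce, and lies on chromosome 15 at 74994877 to 74998031. It was at 253 CPM in MWA intermediates (exact Poisson 95% interval 224 to 285) and at 293 in MWA plus TIGIT (273 to 315). Monocytes had 112 and 183 CPM, and macrophages 121 and 145. At least 1.5-fold above both classes in both libraries it was the only gene, 1 of 2139 or 0.0468%, and 0 of 1868 genes were 1.5-fold below both. The margin was smallest over MWA plus TIGIT monocytes. A Ly6a UMI was found in 61 of 120 and 128 of 227 intermediates, and the barcode with most held 6.86% and 5.24% of the UMIs. Under the looser limits of 5 and 3 UMIs no gene, Ly6a included, was 1.5-fold above both classes.

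Cxcl9, which encodes a chemokine for activated T cells and is the classic target of interferon-gamma, was also above both classes. It lies on chromosome 5 at 92321347 to 92328079. In MWA it was at 670 CPM in intermediates (622 to 720), 95.7 in monocytes and 330 in macrophages. In MWA plus TIGIT it was at 630 CPM (600 to 661), 182 and 467. The level came from a minority: 38 of 120 and 72 of 227 intermediates had a Cxcl9 UMI. The barcode with most held 19.3% and 9.69% of all its UMIs. In ranges along the gate (below), 1 barcode held 44.5%, 47.5% and 50.9% of the MWA UMIs. Without the highest barcode of each range, levels were 259, 445 and 873 CPM in MWA. In MWA plus TIGIT they were 559, 382 and 415 CPM. These levels lay on both sides of macrophages in each library. A UMI was found in 31.7% of intermediates of each library and in 24.7% and 29.4% of macrophages of like depth. The shares thus differed by less than the levels, and their difference was not tested. Without marked doublets Cxcl9 was at 754 and 681 CPM, and those macrophages had 330 and 451.

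Other interferon-gamma genes were less apart. Of 6 with enough UMIs 3 were above both classes in both libraries: Cxcl9 and the genes Gbp2 and Gbp7 of guanylate-binding proteins that act against microbes. Gbp2, which has a close copy in Gbp2b, was at 147 and 134 CPM, against 113 and 110 in monocytes and 91.9 and 90.9 in macrophages. The median log2 ratio of the 6 genes was 0.24 and 0.44 over monocytes and 0.27 and 0.41 over macrophages. In the ranges of the gate (below), 1 barcode held 18.9%, 33.3% and 43.9% of the whole list's UMIs in MWA. In MWA plus TIGIT it held 10.4%, 32.5% and 24.9%. Without that barcode the list was at 949, 1157 and 1520 CPM in MWA, against 947 in macrophages. In MWA plus TIGIT it was at 1406, 821 and 1394 CPM, against 1124.

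Itgax, Ecm1 and Bcl2a1d completed the 10 genes furthest above both classes. Itgax, which encodes CD11c of myeloid cells, was at 75.9 and 64.9 CPM, against 45.2 and 49.1 in monocytes and 29.0 and 32.6 in macrophages. Ecm1, a secreted matrix protein, was at 264 and 247 CPM, against 156 and 176 and against 135 and 187. Bcl2a1d, a survival gene with near-identical copies whose reads may be split, was at 199 and 165 CPM, against 105 and 128 and against 127 and 119. Itgax marks dendritic cells too. The 7 listed dendritic cell markers summed to 10.98 and 14.2 CPM in intermediates, which are 12 and 37 UMIs. Monocytes had 41.7 and 6.13 CPM and macrophages 4.71 and 3.16, so intermediates were above macrophages in both libraries. In the middle range of the gate (below), 1 MWA plus TIGIT barcode held 76.2% of these UMIs. Xcr1 was at 1.83 and 1.54 CPM in intermediates and Clec9a at 5.49 and 2.69. Whether dendritic cells were among the intermediates was not tested.

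**Figure D3:**
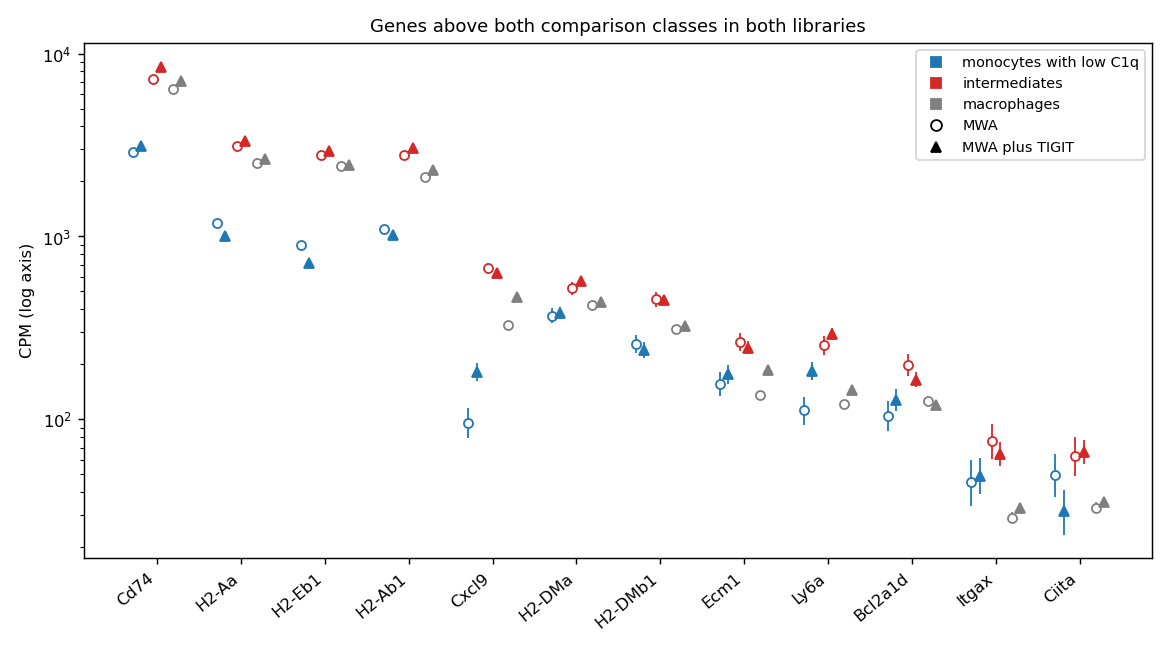
CPM (log axis) of the 10 genes furthest above both comparison classes and of H2-Eb1 and Cd74, in monocytes with low C1q (blue), intermediates (red) and macrophages (gray), with open circles for MWA and filled triangles for MWA plus TIGIT. Lines are exact Poisson 95% intervals for counting error; each red point lies above the blue and gray point of its own library, by most for Cxcl9 over monocytes (670 against 95.7 CPM in MWA).

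Of the 5 genes furthest below both classes none was 1.5-fold below both in both libraries. Hes1, a Notch target, was at 79.6 and 49.5 CPM, against 172 and 84.0 in monocytes and 105 and 65.7 in macrophages. Ccl3, an inflammatory chemokine, was at 42.1 and 45.7 CPM, against 54.96 and 60.7 and against 82.2 and 63.0. Ninj1, a membrane protein of dying cells, was at 175 and 168 CPM, against 252 and 201 and against 218 and 241. Smad7, an inhibitor of TGF-beta signals, and Vmp1, an autophagy protein, completed the 5, at 71.4 and 65.7 CPM and at 56.7 and 58.4 CPM. Vmp1 was at 74.5 and 68.7 CPM in monocytes.

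Chemokine genes stood in several orders. Ccl8 and Ccl12, which encode ligands of monocyte receptors, lay between, Ccl8 at 139 and 156 CPM, against 3.55 and 6.75 in monocytes and 169 and 257 in macrophages, and Ccl12 at 315 and 382 CPM, against 121 and 76.7 and against 817 and 597. Ccl7, a ligand of CCR2, was at 430.0 and 412 CPM, close to macrophages (554 and 421) and above monocytes (176 and 185). Cxcl2, which draws neutrophils, was below both classes at 907 and 763 CPM, against 1522 and 1396 in monocytes and 1121 and 842 in macrophages. Of 10 ligands 4 lay between in both libraries, near the background of 39.6%. Of 5 receptors 3 lay between. Cx3cr1, the fractalkine receptor, was at 454 and 507 CPM, against 297 and 411 in monocytes and 660 and 644 in macrophages. Ccr2 and Cx3cr1 were thus both found in each class when summed. Whether single intermediates held both was not tested.

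Arg1, which encodes arginase and depletes arginine around suppressive macrophages, was at 1624 and 1836 CPM, against 597 and 647 in monocytes and 1272 and 2085 in macrophages. Of 10 genes of hypoxia and Arg1 only 1 lay between in both libraries, and Hmox1 was at least 1.5-fold below macrophages at 113 and 106 CPM against 201 and 228. Of 6 complement genes outside the rule 3 lay between and 2 were above both classes, Cfb and Cfp, factors of the alternative pathway. Cfb was at 81.4 and 92.5 CPM, against 27.5 and 75.4 in monocytes and 44.1 and 59.5 in macrophages. Of 5 Fc receptor genes 2 were above both, among them the inhibitory receptor Fcgr2b at 764 and 682 CPM, against 456 and 523 in monocytes and 553 and 628 in macrophages.

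Markers of other cells were low in intermediates with few exceptions. T cell markers summed to 26.5 and 21.1 CPM, neutrophil markers to 35.7 and 61.8 and tumor and stromal markers to 5.49 and 3.84, while mast cell and basophil markers had no UMI, which allows up to 2.74 and 1.15 CPM at 3 counts. The rule allows no UMI of Cd3d, Cd3e or Cd3g, so the level of T cell markers is partly set by the choice. B cell markers summed to 65.0 and 76.8 CPM, of which Ighm, the IgM heavy chain, gave 59.5 and 69.9 CPM, while Cd79a was at 1 UMI and none. NK cell markers summed to 225 CPM in MWA and to 37.6 in MWA plus TIGIT, against 6.46 and 5.53 in macrophages. Monocytes had 5.32 and 14.7 CPM, but they were chosen to have no UMI of Ncr1, which is on this list. Gzma, a granzyme of NK cells, gave most of the sum in intermediates, and 1 barcode held 91.2% of its 228 UMIs in MWA. Plasmacytoid dendritic cell markers summed to 654 and 657 CPM, below macrophages at 812 and 814, with Bst2 and Tcf4 as their main genes, while Siglech, which defines these cells, had no UMI in MWA and 31 in MWA plus TIGIT, in 2 barcodes.

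Intermediates were not uniform along the gate. They were split by the monocyte share of their gate UMIs, that is, the monocyte sum over the sum of both. A share under 0.2 was found in 68 of 120 and 135 of 227, a share of 0.2 to under 0.4 in 37 and 45, and a share of 0.4 or more in 15 (12.5%) and 47 (20.7%). From the lowest to the highest range the macrophage list outside the rule summed to 21280, 16868 and 14010 CPM in MWA and to 24454, 17819 and 12623 CPM in MWA plus TIGIT. Apoe was at 11808, 8183 and 6693 CPM and at 14944, 9014 and 6381 CPM. Classical monocyte genes summed to 7555, 7699 and 9879 CPM in MWA and to 7004, 8211 and 8965 CPM in MWA plus TIGIT, and Ccr2 alone to 544, 666 and 872 CPM and to 638, 687 and 765 CPM. Lists outside the rule thus followed the balance of the gate genes in both libraries. Over the first and second range alone, which hold 37 barcodes or more, the same order held for each of these. There the intervals of the classical monocyte list overlapped in MWA (7352 to 7763 and 7384 to 8024). Those of Ccr2 overlapped in MWA (490 to 602 and 576 to 767) and in MWA plus TIGIT (600 to 677 and 615 to 766).

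MHC class II summed to 22724 CPM in the range nearest to macrophages, 15855 in the middle and 9108 in the range nearest to monocytes in MWA, and to 24740, 16660 and 16913 CPM in MWA plus TIGIT. The lowest of these, of 15 barcodes, was close to MWA monocytes at 8753 CPM, and the first range was above macrophages in both libraries (16842 and 18527 CPM). The middle range and the range nearest to monocytes were below macrophages in both libraries. The summed class II level of intermediates was thus above that of macrophages only through the range nearest to macrophages. Mrc1 was at 168, 82.5 and 65.0 CPM along the same order in MWA plus TIGIT and at 219, 168 and 27.5 CPM in MWA, where 1 barcode held 65.3% of the middle value. Ly6a was at 254, 261 and 230 CPM and at 304, 254 and 291 CPM, with intervals that overlapped between neighboring ranges. Cxcl9 was at 457, 831 and 1588 CPM in MWA and at 648, 529 and 671 CPM in MWA plus TIGIT, and in MWA 1 barcode held 44.5%, 47.5% and 50.9% of its UMIs in the ranges. Marked doublets were 19.1%, 16.2% and 6.67% of the ranges in MWA and 15.6%, 11.1% and 10.6% in MWA plus TIGIT. Their part in the order was not tested. Median depth was 9372, 6516 and 6733 UMIs and 11380, 9483 and 7831 UMIs.

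**Figure D4:**
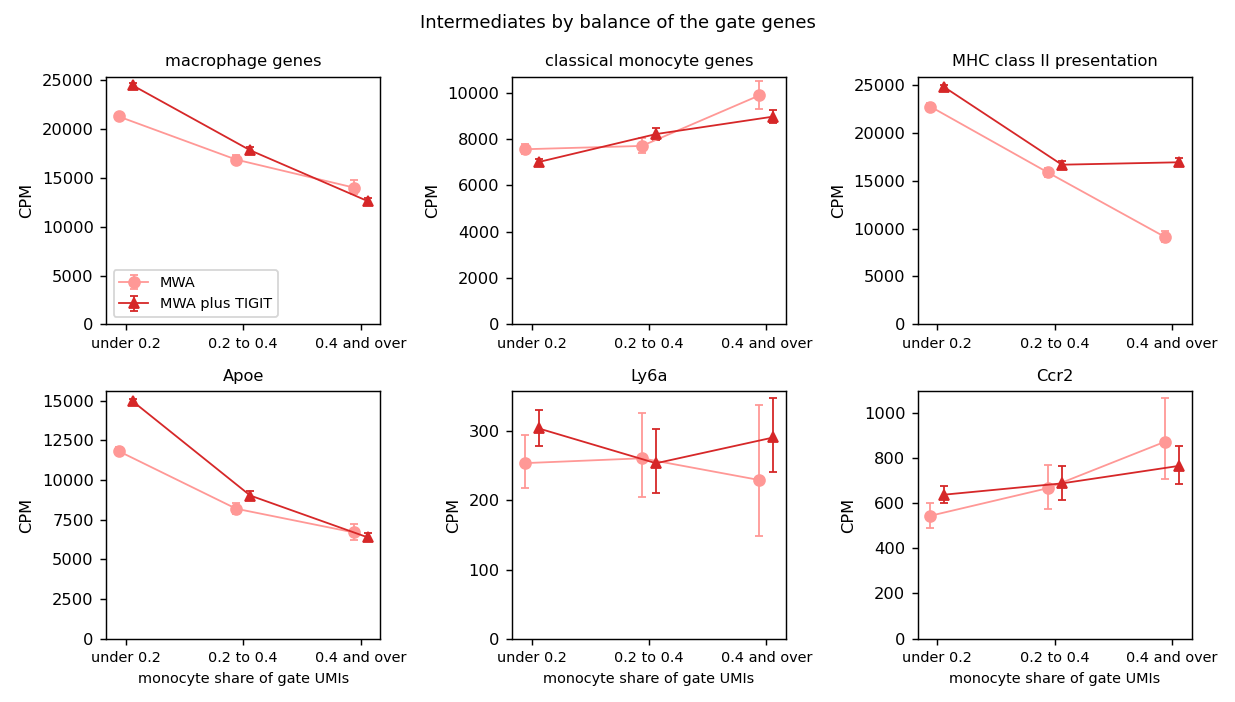
CPM (y axes, from 0) of gene lists outside the rule and of Apoe, Ly6a and Ccr2 in intermediates, by the monocyte share of their gate UMIs (x axis, 3 ranges), for MWA (light circles) and MWA plus TIGIT (dark triangles). Error bars are exact Poisson 95% intervals for counting error. Macrophage genes and Apoe are lower and classical monocyte genes and Ccr2 higher toward the monocyte side. The intervals of Ly6a and of Ccr2 overlap between neighbors, and the last MWA point rests on 15 barcodes.

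Between the libraries intermediates differed in few genes. Of 2467 genes with at least 50 CPM in intermediates of a library and 20 UMIs in all, 3 were at least 2-fold higher in MWA plus TIGIT (0.122%) and 8 at least 2-fold lower (0.324%). The 95% interval of the ratio lay above 0 for 11.5% of genes and below 0 for 7.26%, and the median log2 ratio of all genes was 0.05. Of the lists, macrophage genes had a median log2 ratio of -0.06 with 5 intervals above 0 and 6 below, classical monocyte genes -0.13 with 3 above and 3 below, MHC class II genes 0.08 with 5 above and none below, and interferon-gamma genes 0.04 with 2 above and none below. No gene of these 4 lists was 2-fold apart but Thbs1. Of 12 chemokine ligands 3 were at least 2-fold lower in MWA plus TIGIT, namely Ccl5, Ccl24 and Cxcl3, with 5 intervals below 0 and 1 above and a median of -0.10. Of 5 chemokine receptors 4 had intervals above 0 and none below, with a median of 0.16. Hypoxia and Arg1 genes had a median of -0.20 with 4 of 10 intervals below 0 and 1 above, and complement genes 0.20 with 1 of 6 above and none below.

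Several of the largest ratios rested on 1 barcode. Gzmc, a granzyme, was the highest at 3.66 CPM in MWA and 93.7 in MWA plus TIGIT, and 99.2% of its UMIs there were in 1 barcode. Cxcl3 was the lowest, at 63.1 and 3.84 CPM, with all of its UMIs in MWA in 1 barcode. Gzma, at 209 and 27.3 CPM, and Mmp12, a macrophage elastase at 109 and 30.7 CPM, had 91.2% and 76.5% of their MWA UMIs in 1 barcode. When every barcode was thinned to 5000 UMIs the ratio of Mmp12 had the other sign (0.92). These 4 values describe single barcodes rather than the intermediates of a library.

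Genes higher in MWA plus TIGIT and spread over many intermediates were modest in size. Rnase6, an antimicrobial ribonuclease, was at 33.8 and 69.5 CPM, and the log2 ratio (95% interval in brackets here and below) was 1.04 (0.52 to 1.59). C3, the central complement protein, was at 65.9 and 127 CPM (0.94, 0.57 to 1.33), and F10, coagulation factor X, at 52.1 and 91.8 CPM (0.82, 0.39 to 1.26). In the 12 intermediates per library with at most 5000 UMIs the ratio of Rnase6 was -0.74 (-4.32 to 2.39). Monocytes had the most of C3 and F10, with 171 and 169 CPM of C3 and 175 and 159 CPM of F10 in monocytes, and both were also higher in MWA plus TIGIT macrophages, with log2 ratios of 0.65 and 0.70. Tnfaip2, a gene induced by TNF, was at 92.4 and 176 CPM (0.93, 0.62 to 1.26), while its ratio in macrophages was 0.08. Tubb2a, a tubulin, Map3k1, a kinase of stress signals, and Akap9, a centrosome scaffold, had log2 ratios of 0.87, 0.85 and 0.84.

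Genes lower in MWA plus TIGIT included chemokines and secreted factors. Ccl5, a chemokine for T cells and monocytes, was at 293 CPM in MWA (262 to 327). In MWA plus TIGIT it was at 95.6 CPM (84.1 to 108), a log2 ratio of -1.61 (-1.86 to -1.37). A UMI was found in 34 of 120 and 70 of 227 intermediates, so the share with Ccl5 was not lower in MWA plus TIGIT. In the ranges of the gate, 1 barcode held 29.9%, 36.3% and 61.8% of the MWA UMIs. In MWA plus TIGIT it held 11.5%, 26.1% and 75.4%. Without that barcode the ranges were at 120, 309 and 251 CPM in MWA and at 85.8, 37.8 and 37.2 CPM in MWA plus TIGIT. MWA was thus higher in each range, by levels that rest on a minority of intermediates. In macrophages Ccl5 was at 122 and 152 CPM with a log2 ratio of 0.31, so the direction was opposite there. Ccl24, a chemokine for eosinophils, was at 112 and 43.4 CPM (-1.36, -1.75 to -0.98), with 50% of its MWA UMIs in 1 barcode, and the ratio without the highest barcode of each library was -0.74. Thbs1, thrombospondin, was at 253 and 111 CPM (-1.19, -1.43 to -0.95), against 532 and 589 in monocytes, and its ratio in the 12 intermediates per library with at most 5000 UMIs was 1.84 (-0.48 to 5.12). Mt2, a metallothionein, was at 90.6 and 35.3 CPM (-1.36, -1.78 to -0.93), but under stricter sums of 20 and 10 its ratio was 0.43 (-0.32 to 1.23).

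Morrbid, a long noncoding RNA of myeloid survival, was at 58.5 and 28.8 CPM (-1.02), and Selenom, a selenoprotein, at 63.1 and 32.3 CPM (-0.97). Pf4, platelet factor 4, which tumor macrophages also make, was at 302 and 179 CPM (-0.75, -0.96 to -0.54), and its ratio in macrophages was -0.32. In macrophages the ratios of Thbs1, Mt2 and Morrbid were -0.36, -0.08 and -0.27.

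Among genes the study follows in myeloid cells, Cxcl9 and Cxcl16, which draw T cells, had ratios near 0 in intermediates and Cxcl10 did not. The log2 ratio of Cxcl9 was -0.09 (-0.21 to 0.04), while in macrophages it was 0.50 (0.46 to 0.54). Single barcodes weighed heavily in the Cxcl9 ratio of intermediates. In the ranges of the gate, 1 barcode held 44.5%, 47.5% and 50.9% of the MWA UMIs. Without the highest barcode of each range, MWA plus TIGIT was higher in the range nearest to macrophages (559 against 259 CPM). It was lower in the middle range (382 against 445) and in the range nearest to monocytes (415 against 873). Cxcl10, a further ligand of CXCR3, was at 107 and 187 CPM (0.81, 0.51 to 1.11), with a UMI in 21 of 120 and 33 of 227 intermediates and 23.1% and 28.7% of UMIs in 1 barcode. Cxcl16, the ligand of CXCR6, was at 375 and 399 CPM (0.09, -0.08 to 0.26). The monocyte chemokines Ccl2 and Ccl7 had ratios of -0.10 (-0.21 to 0.02) and -0.06 (-0.22 to 0.10) in intermediates and of -0.56 and -0.39 in macrophages. Arg1 had a ratio of 0.18 (0.10 to 0.26) in intermediates and of 0.71 in macrophages. The interval of Cxcl9, Ccl2, Ccl7 and Arg1 in intermediates lay apart from the ratio in macrophages each time, but the difference was not tested. These intervals cover counting error only and not the weight of single barcodes, which was large for Cxcl9.

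Ligands of checkpoints were sparse. Pvr, the main ligand of TIGIT, was at 25.6 and 22.7 CPM (-0.18, -0.85 to 0.53), with a UMI in 20 of 120 and 49 of 227 intermediates, near the 22.2 and 22.1 CPM of monocytes and the 23.0 and 21.3 CPM of macrophages. Nectin2, a further ligand, was at 2.74 and 5.38 CPM, which are 3 and 14 UMIs, and Pdcd1lg2, which encodes PD-L2, at 4.57 and 5.76 CPM. Cd274, which encodes PD-L1, was at 32.9 and 35.7 CPM (0.12, -0.45 to 0.71). No difference in these genes was detectable at this depth. Of 9 checkpoint ligands and myeloid receptors, 3 had enough UMIs: Sirpa, Vsir and Lgals9. Vsir, which encodes VISTA, was below both classes, at 166 and 173 CPM against 208 and 241 in monocytes. Its margin under macrophages was small (176 and 190).

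**Figure D5:**
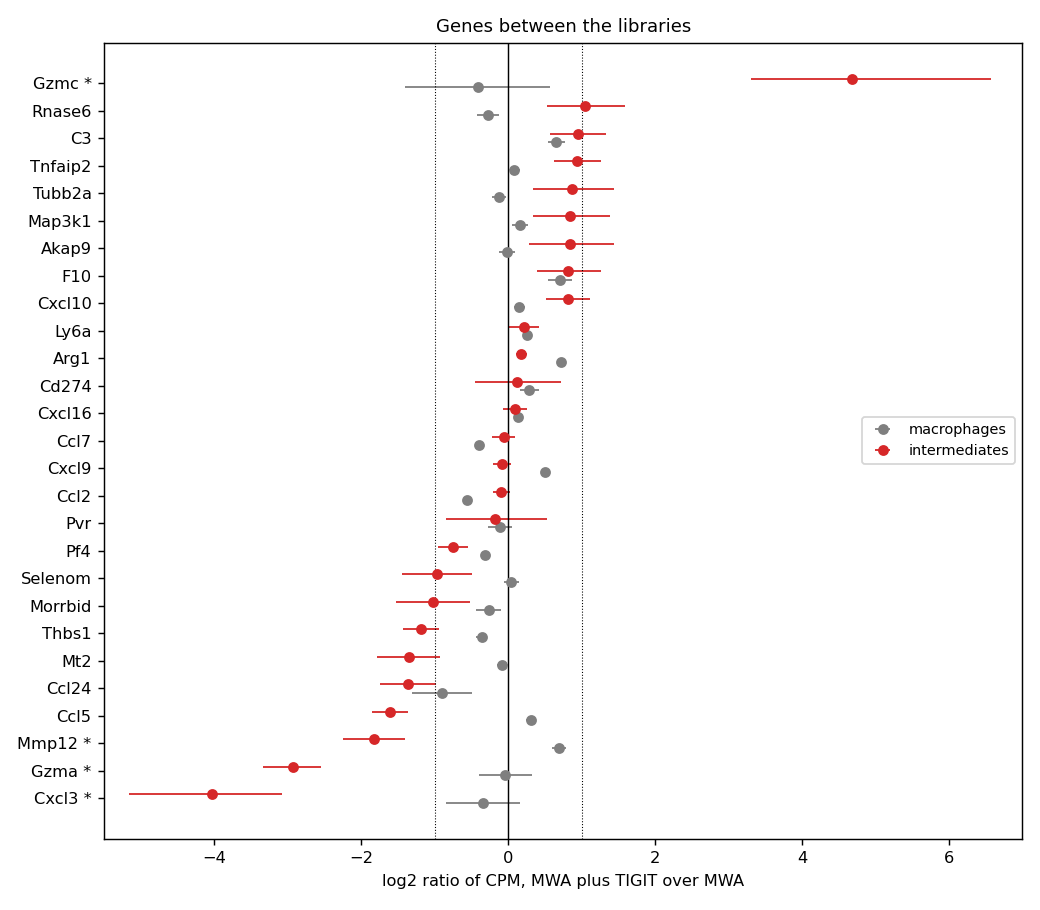
Log2 ratio of CPM, MWA plus TIGIT over MWA (x axis), in intermediates (red) and macrophages (gray), for genes with the highest and lowest ratios in intermediates and for further genes named in the text. Lines are exact conditional binomial 95% intervals for counting error, dotted lines mark 2-fold, and a star marks genes with over 50% of their UMIs of a library in 1 intermediate; Ccl5 (-1.61) and Mmp12 (-1.83) lie left of 0 in intermediates and right of it in macrophages.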

How the data were processed

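Values were UMI counts per gene and barcode of 1 droplet library per group (10x Genomics chemistry 3.1), which the authors made with Cell Ranger against mm10 and deposited as counts with no normalization. The labels name Cell Ranger 6.1.1 and the matrix headers 4.0.0, and the sample labels give 3 antibody injections where the study's methods give another number. The members and gene lists were chosen with earlier results of these data known. From 32285 genes, UMIs were summed over the barcodes of each class and divided by the class total (CPM). With 1 library per group no test was possible. Levels carry exact Poisson, shares exact binomial and ratios exact conditional binomial 95% intervals, all for counting error only. The study's edgeR fit was not used, for lack of replicates; edgeR 4.0.16 (R 4.3.3) gave only TMM factors as an alternative. A call between libraries was 2-fold, and genes entered from 50 CPM in intermediates of either library if both together gave 20 UMIs or more. Ages of the mice come from the study's methods. Libraries held 10217 and 10190 barcodes with 66152465 and 78751205 UMIs.

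Named genes were the 10 highest and 10 lowest ratios between libraries, the 10 furthest above and 5 furthest below both comparison classes, 10 myeloid genes the study follows, and the up to 4 genes with most UMIs of each list, leaving out rule, mitochondrial, ribosomal, hemoglobin, receptor segment and unnamed genes in the first 2 of these. Other list genes were named after their values were seen. Some genes that this rule names are not reported here. Comparison monocytes also had at most 9 UMIs of S100a8 and S100a9 and none of Siglech, Cd79a, Ncr1 or the Cd3 genes. Doublets were called per library from simulated sums of 2 barcodes (share 0.25, 20 components, 50 neighbors, 0.8% per 1000 barcodes) and kept. The intervals and the caller were tested on simulated data. Coordinates are those of GRCm38. Python 3.11.15, numpy 2.4.6, scipy 1.17.1, pandas 2.3.3, scikit-learn 1.9.0 and matplotlib 3.10.9 were used. Alternatives changed the doublets, mitochondrial limit, depth, gate sums, Plac8, scaling and expression limit, 1 at a time.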

Additional observations from a re-analysis of the deposited data

Results flagged for a closer look

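Among genes with enough UMIs, 3 had a ratio of MWA plus TIGIT over MWA of at least 2-fold in intermediates and a ratio of the other sign in macrophages, with the 95% interval apart from 0 in both classes. The difference between the cell classes was not tested. Rnase6 had a log2 ratio of 1.04 in intermediates and -0.28 in macrophages, with a UMI in 28 of 120 and 87 of 227 intermediates. Mmp12 had a log2 ratio of -1.83 in intermediates and 0.69 in macrophages, and 1 barcode held 76.5% of its UMIs in MWA and 1 held 56.2% in MWA plus TIGIT. Ccl5 had a log2 ratio of -1.61 in intermediates and 0.31 in macrophages. Without the barcode with most of its UMIs in each library the ratio in intermediates was -1.68. Its level rested on a minority, with a UMI in 34 of 120 and 70 of 227 intermediates. In the ranges of the gate, 1 barcode held 29.9%, 36.3% and 61.8% of its MWA UMIs.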

How the results depend on the processing

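No paired analysis was possible because each group was 1 library. Depth limited the most: barcodes with at most 5000 UMIs left 12 intermediates per library, and counts there describe few barcodes. The share of intermediates in MWA, in MWA plus TIGIT and their difference were 0.273%, 0.318% and 0.0452 points with at most 5000 UMIs, 0.618%, 1.26% and 0.643 under stricter sums of 20 and 10, 2.0%, 3.51% and 1.51 under looser sums of 5 and 3, and 1.47%, 1.97% and 0.498 when thinned to 5000 UMIs. Without Plac8 the shares were 0.787% and 1.77%. The 3 genes at least 2-fold higher became 5 without doublets, 55 with at most 5000 UMIs, 11 under stricter sums, 51 when thinned, 10 without Plac8 and 157 from 10 CPM, and the 8 lower became 27 with at most 5000 UMIs, 25 when thinned and 87 from 10 CPM. The 1 gene above both classes by 1.5-fold became 4 without doublets, 66 with at most 5000 UMIs, 3 under stricter sums, 0 under looser sums, 10 when thinned, 3 without Plac8, 11 from 10 CPM and 2 with 5000 to 20000 UMIs, and the 0 below both became 88 with at most 5000 UMIs and 4 from 10 CPM. Classical monocyte genes between the classes fell from 8 to 5 with at most 5000 UMIs. Interferon-gamma genes above both classes, 3 as reported, were 0 with at most 5000 UMIs, 5 when thinned and 5 with 5000 to 20000 UMIs. The alternatives for gene lists and for leaving out top barcodes were chosen after seeing the data. MHC class II genes above both classes numbered 6 to 9 and macrophage genes between them 16 to 20 under every alternative run.

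Log2 ratios changed sign for Gzmc without doublets (-1.23), under stricter sums (-3.23) and without its top barcode (-0.27), for Mmp12 with at most 5000 UMIs (1.84), under stricter sums (1.85) and when thinned (0.92), for Rnase6 (-0.74) and Thbs1 (1.84) with at most 5000 UMIs, and for Mt2 under stricter sums (0.43). The cause was not tested. Of 93 gene ratios 86 stayed within their reported interval without doublets, 93 with at most 5% mitochondrial UMIs and 92 with TMM factors, against 50 of 92 when thinned.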
